A study of Mus musculus with 9 samples.

Results

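The S100 proteins are small calcium-binding proteins, and 10 of their genes were followed in mouse left ventricle: S100a1, S100a4, S100a6, S100a8, S100a9, S100a10, S100a11, S100a13, S100a16 and S100b. They were taken by symbol from a table of 55367 gene symbols, and all 10 were present. Bulk RNA sequencing covered 9 libraries, 3 from each of 3 groups: Sham (sham surgery), MI (myocardial infarction) and MI+BPD (infarction followed by treatment with an agent labelled BPD). The tissue was left ventricle, described for the infarcted hearts as the core of the infarct together with its surroundings, taken at day 14 after MI, and the study asked whether BPD given in the proliferative phase of healing goes with less fibroblast activation. The labels do not spell out BPD or give its dose and schedule, they give Sham no time of its own, and neither the labels nor the design text gives strain, sex or age. No genetic change is named in any group. The labels do not state that each library is a separate animal, so p-values measure the spread between these libraries.

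An S100 protein usually works as a dimer: calcium binds its paired EF-hand loops, a hydrophobic face opens, and the dimer grips a target protein. The members differ in where they are made and what they grip. S100A1 is the form of heart muscle cells, where it binds the ryanodine receptor and the SERCA calcium pump; S100A4, S100A6, S100A10 and S100A11 are typical of fibroblasts and other non-muscle cells and bind myosins and annexins; S100A8 and S100A9 form calprotectin, which neutrophils and monocytes store and release as an alarm signal read by TLR4 and RAGE; S100B is best known from glia.

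Read counts were scaled to CPM (the count over the library's effective size, set by TMM factors), and groups were compared with edgeR's quasi-likelihood test, fitted to all 9 libraries and 15138 genes, with Benjamini-Hochberg adjustment, and genes with an adjusted p under 0.05 were called. A value after ± beside a log2 fold change is its standard error (SE). Library totals ran from 14451410 to 19269072 counts. Marker genes of the labelled tissue were present in every library: the summed level of 10 cardiomyocyte markers ran from 68120 to 70270 CPM in Sham, from 13770 to 24910 CPM in MI and from 23360 to 37300 CPM in MI+BPD, while 10 fibroblast markers summed to 1250 to 1444, 16860 to 26340 and 22700 to 24520 CPM. Mitochondrially encoded genes took 34.4 to 35.2% of the counts for Sham, 11.4 to 18.2% for MI and 17.6 to 25.7% for MI+BPD. The library MI 1 also stood apart by adipocyte genes: 7 of them summed to 152.5 CPM there and to at most 1.20 CPM in every other library.

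Most S100 genes lie together on mouse chromosome 3, and the sequences at their starts are shown here because they place the members side by side before their levels are compared. In the GENCODE M21 annotation (GRCm38) S100a1 (chr3:90511034-90514392, minus strand) and S100a13 (chr3:90514435-90524581, plus strand) face away from each other, with 42 bases between their annotated starts. That stretch, chr3:90514393-90514434, printed 5′ to 3′ on the plus strand from RefSeq's promoter table (GRCm38.p6), has 54.8% G and C:
S100a1 to S100a13: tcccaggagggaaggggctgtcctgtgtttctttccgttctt
RefSeq's table gives windows of 300 bases (250 before and 50 after a gene's start) for 9 of the 10 genes. S100a10 was not matched. RefSeq's starts are not always those of GENCODE M21. For S100a1, S100a6, S100a8 and S100a11, and for the more downstream window of S100a16, they lie inside the GENCODE M21 gene. Distances below are from RefSeq's starts. GENCODE M21 begins S100a8 at 90668978, so the S100a8 TATA box named below lies inside that gene model. These windows were searched on both strands for a TATA box (TATAAA), an AP-1 motif (TGANTCA), a PU.1 motif (GAGGAA) and a MEF2 motif (CTA and TAG with 4 bases of any kind between); none of these contains another, although matches may overlap in part. Over all 32851 windows of the table, 13.6% held the TATA letters, 7.8% AP-1, 28.3% PU.1 and 3.7% MEF2. A TATA box stood 31 bases before the start of S100a4 and 30 bases before that of S100a8. Of all windows, 1.87% hold its letters in full, on the gene's strand, within the 20 bases that begin 40 bases before the start. The letters also stood at the annotated start of S100a9. In the following lines, printed 5′ to 3′ on the gene's strand, capitals mark the TATA letters:
S100a4 (chr3:90603727-90603756, plus): ggcctggcagggTATAAAtaggtcagattg
S100a8 (chr3:90669029-90669058, plus): caagctttcctcTATAAAagcagctgacac
S100a9 (chr3:90695704-90695733, minus): caaggagctgccTATAAAtactgggcttac
The window of S100a11, the member with the smallest adjusted p in MI against Sham, held 2 AP-1 matches, 136 and 38 bases before its start, marked here by capitals:
S100a11 distal (chr3:93520349-93520378, plus): cagagacctgtTGAGTCAcagggactacaa
S100a11 proximal (chr3:93520447-93520476, plus): cgggcacagccTGAGTCAggctgaggggcg
PU.1 letters were found in windows of S100a4, S100a8, S100a11 and S100a16, and a further AP-1 match in a window of S100a16. The windows of S100a1, S100a13, S100a6 and S100b held none of the 4 motifs. A match is a description of letters, and its absence says only that these letters are not in the window.

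S100a1 fell after MI, and S100a6, S100a10, S100a11, S100a13 and S100b rose. Thus 5 of the 9 tested members were higher and 1 was lower in MI than in Sham, 3 did not pass, and S100a4 had too few counts to be tested. Over all 15138 genes 37.0% were called higher and 31.9% lower in the same comparison, so calls were common among genes of every kind. MI+BPD differed from Sham in these 6 genes and in S100a16, with 6 higher and 1 lower (all genes: 31.8% higher, 27.8% lower), while no member was called between MI+BPD and MI (all genes: 0%). The MI against Sham and MI+BPD against Sham comparisons share the Sham libraries, and the MI libraries enter the comparison with MI+BPD as well.

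**Figure D1:**
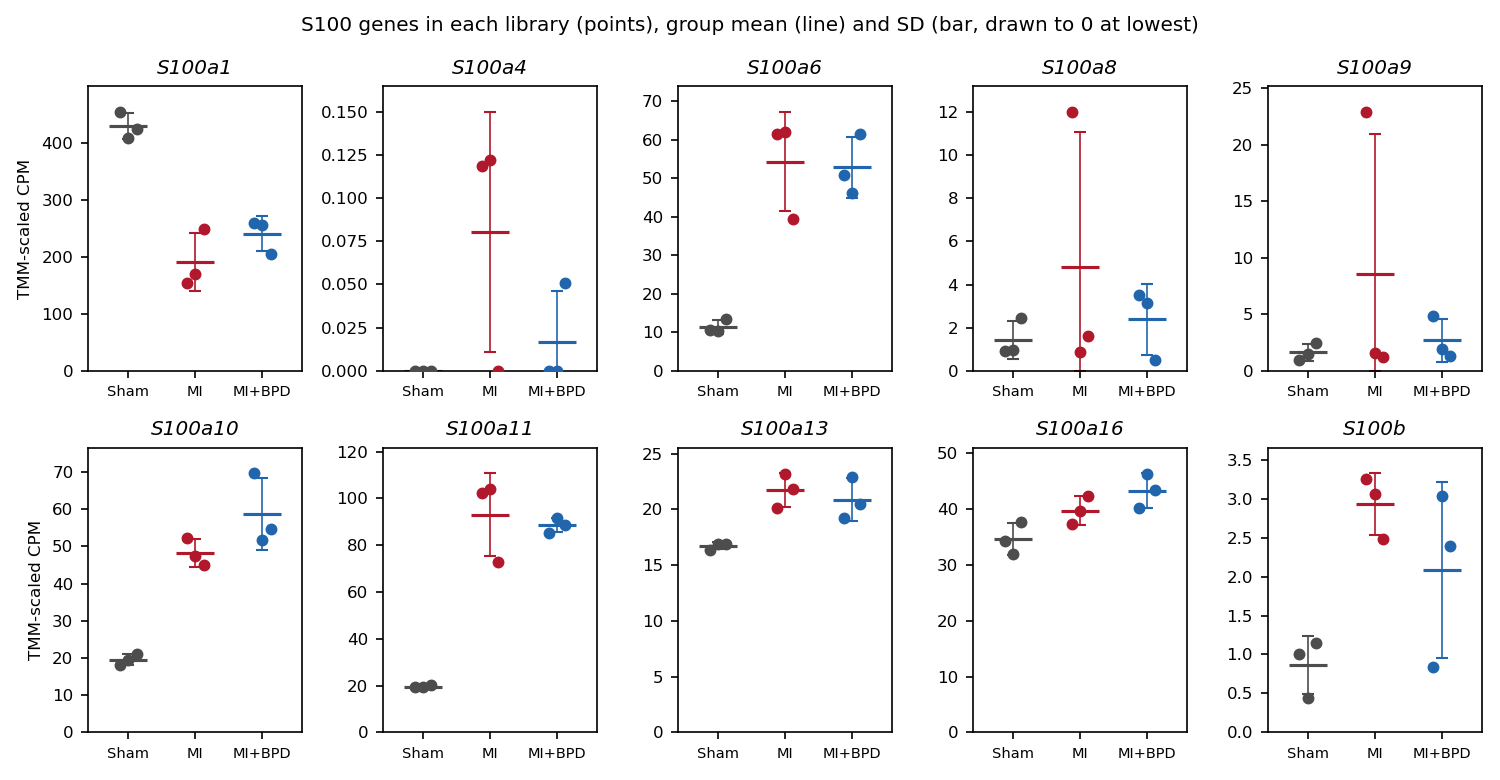
Level of each of the 10 S100 genes in TMM-scaled CPM (vertical axes, each from 0) in the 9 libraries. Points are libraries, horizontal lines are group means and bars are the SD of 3 libraries; S100a1 is high in Sham, S100a6, S100a10 and S100a11 are low in Sham, and S100a8 and S100a9 are high in the library MI 1, at 12.0 and 22.9 CPM.

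S100a1 encodes the heart muscle member, a partner of the ryanodine receptor. Its level was 454, 408.5 and 424 CPM in the 3 Sham libraries, 153, 169.5 and 249 CPM in MI, and 259, 256 and 205 CPM in MI+BPD. Every Sham library lay above every library of the other groups, and the MI and MI+BPD libraries overlapped. The mean was 429 ± 23.0 CPM (SD, n = 3) for Sham, 190.5 ± 51.1 for MI and 240.2 ± 30.2 for MI+BPD. In MI the fold change against Sham was -1.17 ± 0.18 on the log2 scale (95% interval -1.58 to -0.76, adjusted p = 4.13e-04), or 0.444 of the Sham level. In MI+BPD it was -0.84 ± 0.18 (-1.25 to -0.42, adjusted p = 3.82e-03). The step from MI to MI+BPD was 0.33 ± 0.18 (-0.07 to 0.74, adjusted p = 0.418), which did not pass. It passed only without the library MI 3, the highest of the MI group for S100a1 (0.58, adjusted p = 0.0363). With library totals as the only scaling, which moves the median of all genes in MI against Sham from 0.07 to 0.81, S100a1 was at -0.45 in MI (adjusted p = 0.0135) and at -0.31 in MI+BPD (adjusted p = 0.0724).

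All 10 cardiomyocyte markers also fell in MI, with a median log2 fold change of -1.97, and in whole tissue fewer cells of a type and less RNA per cell cannot be told apart. S100a1 was therefore also set against those markers within each library. It gave 6.66, 5.94 and 6.03 counts per 1000 counts of the 10 cardiomyocyte markers in Sham, while MI gave 11.1, 11.6 and 9.98 and MI+BPD 6.95, 10.6 and 8.79. The mean of this ratio was 6.21 ± 0.391 (SD, n = 3) for Sham, 10.9 ± 0.838 for MI and 8.79 ± 1.84 for MI+BPD. Every MI and MI+BPD library lay above every Sham library, the reverse of the order of the S100a1 level itself. This order belongs to the summed markers and does not hold for each of them. Actn2 changed about as much as S100a1, at -1.08 in MI and -0.82 in MI+BPD against Sham on the log2 scale. Every other marker of the list fell further than S100a1. The exact permutation test, 2-sided, gave p = 0.1 for MI against Sham and for MI+BPD against Sham and p = 0.2 for MI+BPD against MI. That 0.1 is the smallest p that 3 against 3 libraries allow. Such tests were run on 11 within-library measures in 3 comparisons, 33 in all, so none of them could pass 0.05, and the smallest p after Benjamini-Hochberg adjustment was 0.206.

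S100a13 is the head-to-head neighbour of S100a1, and its product takes part in the export of FGF1, a growth factor without a signal peptide. Its level was 16.4, 16.9 and 16.9 CPM in Sham, 20.1, 23.2 and 21.8 CPM in MI, and 19.2, 22.9 and 20.5 CPM in MI+BPD. Every Sham library was below every other library, and the infarcted groups overlapped. The fold change was 0.37 ± 0.09 on the log2 scale in MI (adjusted p = 5.27e-03) and 0.32 ± 0.09 in MI+BPD (adjusted p = 0.0147) against Sham. The difference between MI+BPD and MI was -0.05 ± 0.09 (95% interval -0.26 to 0.15). Without the library MI+BPD 2, the highest of its group, S100a13 in MI+BPD against Sham was at 0.25 and did not pass (adjusted p = 0.0641). The pair thus moved in opposite directions across the 42 bases between their GENCODE M21 starts. The count ratio of S100a1 to S100a13 was 25.6 ± 1.83 (SD, n = 3) for Sham, 8.78 ± 2.28 for MI and 11.6 ± 1.76 for MI+BPD. The exact permutation p was 0.1 against Sham for both infarcted groups and 0.3 between them.

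S100a16 lies next but 1 to S100a13 on the chromosome and encodes a widely expressed member. Its level was 34.2, 31.8 and 37.6 CPM in Sham, 37.2, 39.6 and 42.3 CPM in MI, and 40.1, 46.3 and 43.3 CPM in MI+BPD. The MI+BPD libraries lay above all Sham libraries, whereas Sham 3 lay within the MI range. In MI against Sham it was at 0.20 ± 0.09 on the log2 scale and did not pass (adjusted p = 0.0718), and in MI+BPD against Sham it rose by 0.32 ± 0.09 (adjusted p = 0.0120). The difference of MI+BPD from MI was 0.12 ± 0.09 (95% interval -0.07 to 0.32, adjusted p = 0.515). The MI call lay close to the threshold: it passed with upper-quartile factors (0.27, adjusted p = 0.0202), library totals (0.93, adjusted p = 4.4e-05), voom (0.19, adjusted p = 0.0447), a stricter filter (0.25, adjusted p = 0.0279) or without Sham 3 (0.26, adjusted p = 0.0448). The MI+BPD call did not pass without Sham 2 (0.27, adjusted p = 0.0529) or without MI+BPD 2 (0.27, adjusted p = 0.0522).

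Among the members typical of fibroblasts and other non-muscle cells, S100a11 had the smallest adjusted p. It encodes calgizzarin, which binds annexin A1. Its level was 19.3, 19.4 and 20.1 CPM in Sham, 102.3, 104.1 and 72.7 CPM in MI, and 85.4, 91.5 and 88.6 CPM in MI+BPD. The Sham libraries were nearly identical and far below all others; MI 3 was the lowest of the infarcted libraries. The mean rose from 19.6 ± 0.446 CPM (SD, n = 3) in Sham to 93.0 ± 17.6 in MI, and to 88.5 ± 3.05 in MI+BPD, that is by 2.25 ± 0.13 (adjusted p = 6.94e-06) and 2.17 ± 0.13 (adjusted p = 9.50e-06) on the log2 scale. Between MI+BPD and MI the difference was -0.07 ± 0.12 (95% interval -0.35 to 0.20), so a change by more than those bounds is outside the interval.

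S100a6 encodes calcyclin, named for its changes through the cell cycle. It was measured at 10.6, 10.2 and 13.3 CPM in Sham, at 61.4, 62.0 and 39.4 CPM in MI, and at 50.9, 46.1 and 61.5 CPM in MI+BPD. All infarcted libraries were above all Sham libraries, and MI 3 was again the lowest of its group. The rise was 2.25 ± 0.20 in MI (adjusted p = 3.43e-05) and 2.21 ± 0.20 in MI+BPD (adjusted p = 6.02e-05) on the log2 scale. The difference between MI+BPD and MI was -0.04 ± 0.18 (95% interval -0.45 to 0.37).

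S100a10 encodes p11, which does not need calcium and binds annexin A2, plasminogen and its activator at the cell surface. Its level was 18.1, 19.3 and 21.1 CPM in Sham, 52.2, 47.5 and 44.9 CPM in MI, and 69.6, 51.6 and 54.6 CPM in MI+BPD. The Sham libraries were the lowest, and MI 1 lay just above MI+BPD 2. The rise was 1.30 ± 0.12 in MI (adjusted p = 4.58e-05) and 1.58 ± 0.13 in MI+BPD (adjusted p = 2.99e-05) on the log2 scale. S100a10 was the sole member with an unadjusted p under 0.05 between MI+BPD and MI, at 0.28 ± 0.12 (95% interval 0.02 to 0.55, unadjusted p = 0.0397, adjusted p = 0.369). Without MI+BPD 1, the highest of its group, that difference was 0.12 (adjusted p = 0.793).

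**Figure D2:**
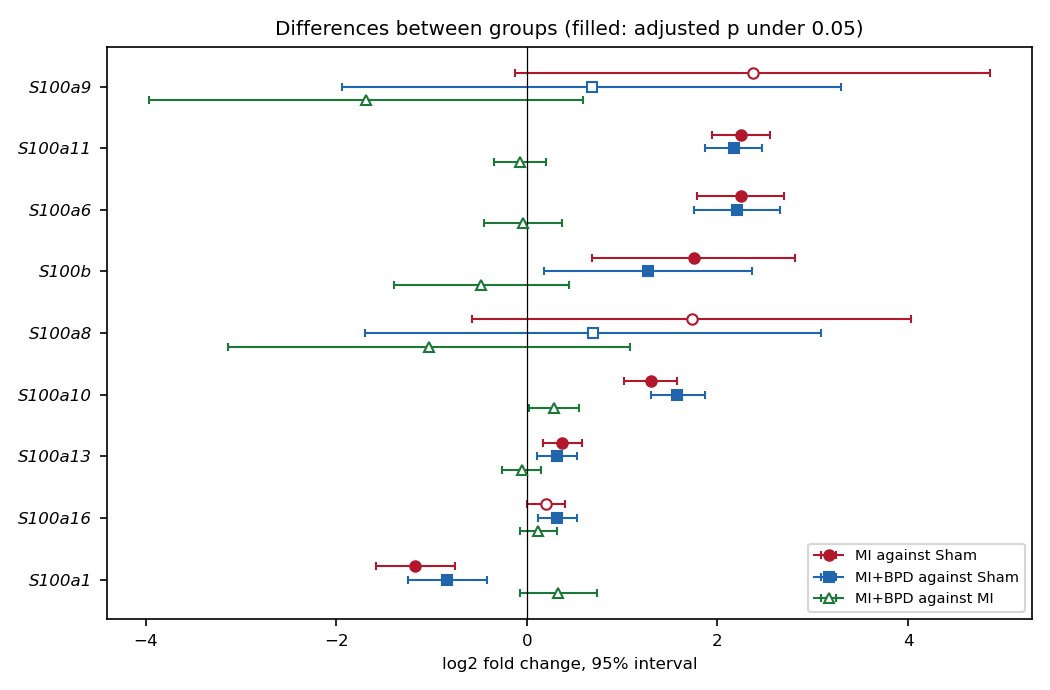
Log2 fold change (horizontal axis) of the 9 tested S100 genes for MI relative to Sham (circles), MI+BPD relative to Sham (squares) and MI+BPD relative to MI (triangles), with bars for the 95% interval and filled symbols for an adjusted p under 0.05. S100a11 and S100a6 lie at 2.25 and S100a1 at -1.17 in MI against Sham, no triangle is filled, and S100a8 and S100a9 have the widest bars.

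The proportion of S100a6 to S100a11 differed between groups by less than the spread between libraries. The count ratio of S100a6 to S100a11 was 0.580 ± 0.0728 (SD, n = 3) for Sham, 0.580 ± 0.0324 for MI and 0.598 ± 0.0951 for MI+BPD, with an exact permutation p of 1.0 for MI and 0.8 for MI+BPD, each against Sham, and of 0.9 between the infarcted groups. All 10 fibroblast markers were higher in MI, and their median log2 fold change of 4.24 was above that of either gene. Pdgfra, Dpt and Dcn rose by less than either gene, at 1.59, 1.64 and 1.71, and every other marker by more. A summed count leans on the most abundant markers, such as Col3a1 at a mean of 6884 CPM in MI, so the ratios depend on the markers chosen. Per 1000 fibroblast-marker counts S100a6 gave 8.46 ± 0.683 counts for Sham, 2.38 ± 0.0535 for MI and 2.23 ± 0.246 for MI+BPD, and S100a11 gave 14.7 ± 0.812, 4.11 ± 0.185 and 3.76 ± 0.236. For both genes every Sham library lay above every infarcted one (exact permutation p = 0.1). Against 11 macrophage and monocyte markers, of which 10 rose in MI with a median of 1.48, the order was the reverse: S100a11 gave 42.7 ± 3.03 counts per 1000 for Sham, 81.0 ± 9.34 for MI and 71.9 ± 11.4 for MI+BPD (exact permutation p = 0.1 against Sham). The part of either cell type in the rise was not tested.

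S100a4 encodes a binder of non-muscle myosin and is widely used as a fibroblast marker under the name fibroblast-specific protein 1. In these libraries it had 0 counts in every Sham library, 3, 3 and 0 counts in MI, and 0, 0 and 1 in MI+BPD. No library exceeded 3 counts, the number that a count of 0 still allows and worth 0.274 CPM in Sham 1, the shallowest library, so no fold is given and no difference was detectable. This holds beside 10 fibroblast markers at 16860 CPM or more in every infarcted library. In GENCODE M21 302 of the 584 exonic bases of S100a4 (51.7%) are shared on the same strand with Gm42674, a model that runs on from S100a3, and none of the other 9 members shares exonic bases with another gene. Gm42674 had 0 counts in all 9 libraries; the labels do not say how reads in shared exons were counted, and its part in the S100a4 count was not tested.

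S100a8 and S100a9 encode the subunits of calprotectin. S100a8 was at 0.915, 0.962 and 2.44 CPM in Sham, at 12.0, 0.896 and 1.61 CPM in MI, and at 3.53, 3.13 and 0.508 CPM in MI+BPD. S100a9 was at 1.01, 1.49 and 2.44 CPM in Sham, at 22.9, 1.63 and 1.24 CPM in MI, and at 4.85, 1.95 and 1.32 CPM in MI+BPD. Of the MI libraries only MI 1 was high, and the others lay within the Sham range for S100a9 and near or within it for S100a8. In MI+BPD, S100a8 in MI+BPD 1 and MI+BPD 2 and S100a9 in MI+BPD 1 lay above every Sham library, though below MI 1. Against Sham the fold change in MI was 1.73 ± 1.02 for S100a8 (adjusted p = 0.160) and 2.37 ± 1.11 for S100a9 (adjusted p = 0.0824) on the log2 scale, and neither passed. Without MI 1 both turned to the other side, at -0.23 (adjusted p = 0.810) and -0.21 (adjusted p = 0.775), and the 2 remaining MI libraries averaged 1.25 ± 0.506 and 1.44 ± 0.273 CPM. S100a9 passed in MI against Sham without MI 2 (2.86, adjusted p = 0.0392), without MI 3 (2.87, adjusted p = 0.0472) and with library totals (3.17, adjusted p = 0.0358), each of which keeps MI 1.

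In MI+BPD against Sham S100a8 was at 0.69 ± 1.06 (adjusted p = 0.596) and S100a9 at 0.68 ± 1.16 (adjusted p = 0.638). Between MI+BPD and MI they were at -1.03 ± 0.94 (95% interval -3.14 to 1.08) and -1.69 ± 1.01 (-3.97 to 0.59), intervals wide enough to hold large changes in either direction. Leaving out MI 1 turned these to 0.93 and 0.89. The summed level of both genes was 1.92 to 4.88 CPM in Sham, 34.9, 2.52 and 2.85 CPM in MI and 1.83 to 8.39 CPM in MI+BPD. The subunits' own proportion varied without order: the count ratio of S100a8 to S100a9 was 0.852 ± 0.183 (SD, n = 3) for Sham, 0.790 ± 0.439 for MI and 0.906 ± 0.629 for MI+BPD (exact permutation p = 0.8 for MI against Sham and 0.7 for MI+BPD against MI).

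**Figure D3:**
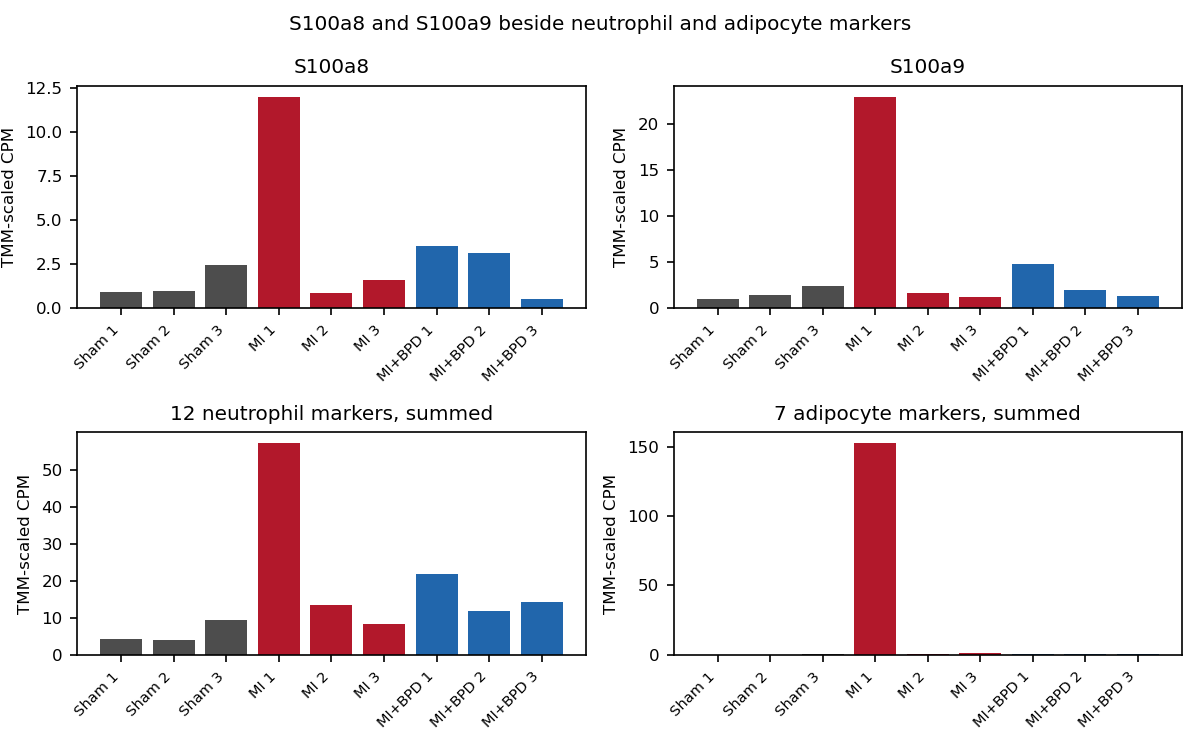
S100a8, S100a9 and the summed neutrophil and adipocyte markers in TMM-scaled CPM (vertical axes from 0) in each of the 9 libraries (bars). In all 4 panels the tallest bar is MI 1, with 57.1 CPM for the 12 neutrophil markers and 152.5 CPM for the 7 adipocyte markers.

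The summed level of 12 neutrophil markers was highest in the same library, MI 1. These markers summed to 4.39, 3.94 and 9.30 CPM in Sham, to 57.1, 13.4 and 8.42 CPM in MI, and to 21.7, 11.8 and 14.3 CPM in MI+BPD. The granule genes Ngp and Ltf were at 15.0 and 9.54 CPM in MI 1 and at or under 0.991 and 0.457 CPM in every other library, and Ly6g, which defines mature mouse neutrophils, had 12 counts in MI 1 and 0 in the other 8 libraries. In all, 9 of the 12 markers were highest in MI 1, and the other 3 were highest in MI+BPD 1: the receptor genes Cxcr2 (2.22 CPM, against 0.594 in MI 1) and Il1r2 (1.80 against 0.594), and Lcn2 (6.05 against 4.95). Ltf, Cxcr2, Il1r2 and Lcn2 were named after their values were seen. Of the 6 neutrophil markers that could be tested only Csf3r, the receptor for the growth factor G-CSF, rose in MI (1.65, 1.40 and 3.13 CPM in Sham against 12.3, 9.28 and 5.80 CPM in MI). MI 1 also held the B-cell genes Cd79a and Ms4a1 at 14.1 and 11.1 CPM, against at most 1.06 CPM in any other library, and the fat cell genes Cfd and Adipoq at 81.9 and 24.8 CPM, against at most 0.460 CPM. The part of these cells in the S100a8 and S100a9 counts of MI 1 was not tested.

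S100b had the lowest group mean per exonic kilobase of the tested members in all 3 groups, although not in every library. In CPM per kb it was above S100a8 in MI 2 (2.06 against 1.29) and in MI+BPD 3 (1.61 against 0.732). In CPM without regard to length, S100b was above both S100a8 and S100a9 in MI 2, MI 3 and MI+BPD 3. Its level was 1.01, 0.437 and 1.14 CPM in Sham (11, 5 and 15 counts), 3.25, 3.05 and 2.49 CPM in MI (82, 75 and 54 counts), and 0.839, 3.03 and 2.39 CPM in MI+BPD (14, 59 and 47 counts). All MI libraries were above all Sham libraries, while MI+BPD 1 lay among the Sham values. S100b rose by 1.75 ± 0.47 in MI (95% interval 0.68 to 2.81, adjusted p = 8.52e-03) and by 1.27 ± 0.48 in MI+BPD (0.18 to 2.36, adjusted p = 0.0458) on the log2 scale. The call in MI+BPD did not pass in a fit with the replicate number as a block (1.22, adjusted p = 0.0872), with median-ratio factors (adjusted p = 0.0511), with the compared groups alone (adjusted p = 0.0659), or when any library other than MI+BPD 1 was left out (adjusted p = 0.0522 to 0.166). MI+BPD against MI gave -0.48 ± 0.41 (-1.40 to 0.44, adjusted p = 0.583).

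Schwann cell markers did not move as a whole beside S100b: of 7 tested, 3 rose, 3 fell and 1 did not pass in MI. Their summed level, 70.6 to 71.8 CPM for Sham, 105.8 to 142.8 for MI and 121 to 163 for MI+BPD, was mostly that of the sodium channel gene Scn7a, at 45.7 to 49.4, 78.9 to 114.5 and 94.5 to 136.3 CPM. The defining gene Sox10 was at 0.823, 0.787 and 1.37 CPM in Sham and at 0.277, 0.244 and 0.782 CPM in MI, lower by 1.22 ± 0.49 on the log2 scale (adjusted p = 0.0491), and at 1.26, 0.924 and 0.711 CPM in MI+BPD, where the difference from Sham was -0.07 ± 0.46 (adjusted p = 0.910). Ngfr, which encodes a neurotrophin receptor, rose by 1.59 ± 0.32 in MI (adjusted p = 1.70e-03) and by 1.64 ± 0.32 in MI+BPD (adjusted p = 2.36e-03). The part of these cells in the S100b counts was not tested.

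Levels of different genes were set side by side per exonic kilobase, with lengths over all exons of a gene in GENCODE M21. The annotation used for counting and the transcripts present are not known, so the order of members with close values may depend on these lengths. S100a1 was first in every group. In Sham its level was 618 ± 33.1 CPM per kb (SD, n = 3), followed by S100a11 at 38.4 ± 0.873, S100a13 at 23.4 ± 0.427, S100a16 at 21.4 ± 1.79, S100a10 at 16.1 ± 1.25, S100a6 at 8.34 ± 1.24, S100a9 at 3.15 ± 1.40, S100a8 at 2.07 ± 1.25 and S100b at 0.581 ± 0.252. The libraries of S100a13 and S100a16, and those of S100a9 and S100a8, overlapped in that order, and the other neighbours did not. In MI S100a1 was at 274.5 ± 73.7 CPM per kb and S100a11 at 182.0 ± 34.5, and their libraries did not overlap. S100a10 and S100a6 came next at 39.8 ± 3.03 and 39.7 ± 9.43 CPM per kb and overlapped, ahead of S100a13 at 30.4 ± 2.14 and S100a16 at 24.6 ± 1.59. The MI libraries of S100a6 and S100a13 overlapped too, as did those of neighbours in the run S100a16, S100a9, S100a8 and S100b. The order of MI+BPD was that of MI, with S100a1 at 346.2 ± 43.5 and S100a11 at 173.2 ± 5.98 CPM per kb.

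The 10 genes took 0.0379 to 0.0420% of all counts for Sham, 0.0541 to 0.0611% for MI and 0.0524 to 0.0584% for MI+BPD. Within them S100a1 supplied 81.7, 80.2 and 78.6% of counts in Sham, while in MI it supplied 33.0, 37.5 and 52.3%, and in MI+BPD 48.6, 49.0 and 43.0%. The Sham libraries stood above all others, MI 3 was the highest of the infarcted libraries, and MI+BPD lay inside the MI range. The mean share was 80.2 ± 1.54% (SD, n = 3) for Sham, 41.0 ± 10.1% for MI and 46.9 ± 3.36% for MI+BPD, with exact permutation p of 0.1 against Sham for both and 0.4 between them. S100a11 took 3.48 to 3.81% in Sham and 15.3 to 23.0% in MI, S100a6 took 1.91 to 2.48% and 8.29 to 13.7%, and the MI+BPD libraries lay inside the MI range for both. These shares do not depend on the scaling of the libraries.

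**Figure D4:**
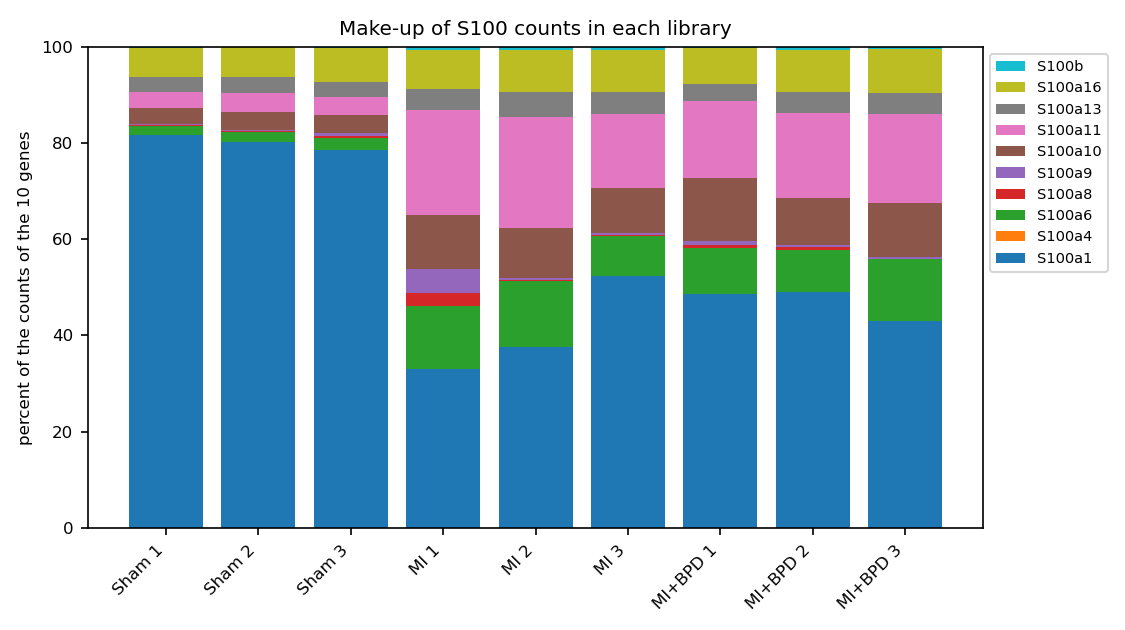
Make-up of the counts of the 10 S100 genes (vertical axis, percent) in each of the 9 libraries (stacked bars). S100a1 takes 78.6 to 81.7% in Sham and 33.0 to 52.3% in the infarcted libraries, where S100a11, S100a6 and S100a10 fill most of the difference.

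Of 7 further S100 genes in the table only S100a7a, which encodes a protein of the psoriasin type, had enough counts to be tested. It was at 0.457, 0.175 and 0.305 CPM in Sham, 1.31, 2.57 and 1.75 CPM in MI and 0.779, 1.23 and 1.37 CPM in MI+BPD, on 2 to 63 counts per library. Every infarcted library was above every Sham library. The Sham counts of 5, 2 and 4 were under the filter's minimum of 10, so S100a7a was tested only because of the infarcted libraries. It rose by 2.57 ± 0.43 in MI (adjusted p = 6.26e-04) and by 1.85 ± 0.45 in MI+BPD (adjusted p = 6.81e-03) on the log2 scale, and MI+BPD against MI gave -0.72 ± 0.34 (adjusted p = 0.377). S100a3, S100a5, S100a14, S100g and S100z had at most 2 counts in any library, and S100a7l2 had none.

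The known partners of these proteins were counted from lists of textbook targets, beside a median log2 fold change of 0.07 over all genes in MI against Sham, of which 37.0% were called higher and 31.9% lower. Of 7 annexins and membrane partners 5 rose and 2 fell (median 1.16). Anxa2, whose product pairs with p11, rose by 1.98 ± 0.11, Anxa1, the partner of S100A11, by 2.75 ± 0.18, Anxa4 by 1.32 ± 0.12 and Anxa5 by 1.16 ± 0.12. With library totals none of the 7 was lower. The log2 fold change of Anxa2 was above that of S100a10, and that of Anxa1 was above that of S100a11. No other annexin was set against an S100 gene in this way. The count ratio of S100a10 to Anxa2 was 0.358 ± 0.0239 (SD, n = 3) for Sham, 0.225 ± 0.0150 for MI and 0.254 ± 0.0480 for MI+BPD. That of S100a11 to Anxa1 was 0.819 ± 0.0558, 0.578 ± 0.0501 and 0.571 ± 0.0195. Sham lay above the infarcted libraries in each (exact permutation p = 0.1).

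Of 9 tested receptors and co-receptors for secreted S100 proteins 6 rose and 2 fell in MI (median 0.67), beside the same 37.0% and 31.9% of all genes. Tlr4, which encodes a receptor that reads calprotectin, rose by 0.95 ± 0.09, from 22.5 ± 0.691 CPM (SD, n = 3) in Sham to 43.5 ± 1.87 in MI. Its co-receptor gene Cd14 rose by 1.99 ± 0.22. Alcam, a cell adhesion gene, rose by 3.05 ± 0.18, and Bsg, which encodes basigin, fell by 1.28 ± 0.17 on the log2 scale. Ager, which encodes RAGE, had too few counts to be tested.

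The list of other targets was mostly intracellular, but it also held Plat, whose product p11 binds at the cell surface. Of 15 tested targets 6 rose and 8 fell (median -0.46), beside 37.0% and 31.9% of all genes. The non-muscle myosin genes Myh10 and Myh9, targets of S100A4, rose by 1.89 ± 0.15 and 1.24 ± 0.13, Capza1, which encodes a capping protein of actin filaments, by 0.71 ± 0.07, and Plat, the tissue plasminogen activator, by 1.70 ± 0.19. The S100A1 targets Ryr2, Atp2a2 (the SERCA pump) and Pln (its inhibitor phospholamban), named after their values were seen, were at -1.84, -2.43 and -2.07, beside -1.17 for S100a1. Of 13 other EF-hand genes 9 rose and 2 fell (median 0.58), read against the same shares of all genes. Rcn3 rose by 3.19 ± 0.17, Rcn1 by 1.81 ± 0.11, Efhd2 by 1.79 ± 0.21 and Sri (sorcin, a regulator of the ryanodine receptor) by 0.58 ± 0.09.

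Against MI, then, MI+BPD showed no called S100 member by edgeR. Of all 15138 genes 0% were called higher and 0% lower, 2043 had an unadjusted p under 0.05, and 1 of the 9 tested members did. DESeq2 called 51 genes and limma-voom 1063, none of them a member, although DESeq2 gave S100a9 no adjusted p. No member had MI+BPD libraries that all lay beyond all MI libraries, against 13.9% of all genes. None of the genes in the lists of annexins, receptors, targets and EF-hand proteins was called. The 95% interval of the difference from MI was -0.07 to 0.32 for S100a16, -0.26 to 0.15 for S100a13, 0.02 to 0.55 for S100a10 and -0.35 to 0.20 for S100a11, and it was wide for S100a9 and S100a8.

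The groups did not overlap for 6 members in MI against Sham, beside 74.4% of all genes, and for 6 members in MI+BPD against Sham, beside 68.5%. S100a16 replaced S100b among the members without overlap.

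**Figure D5:**
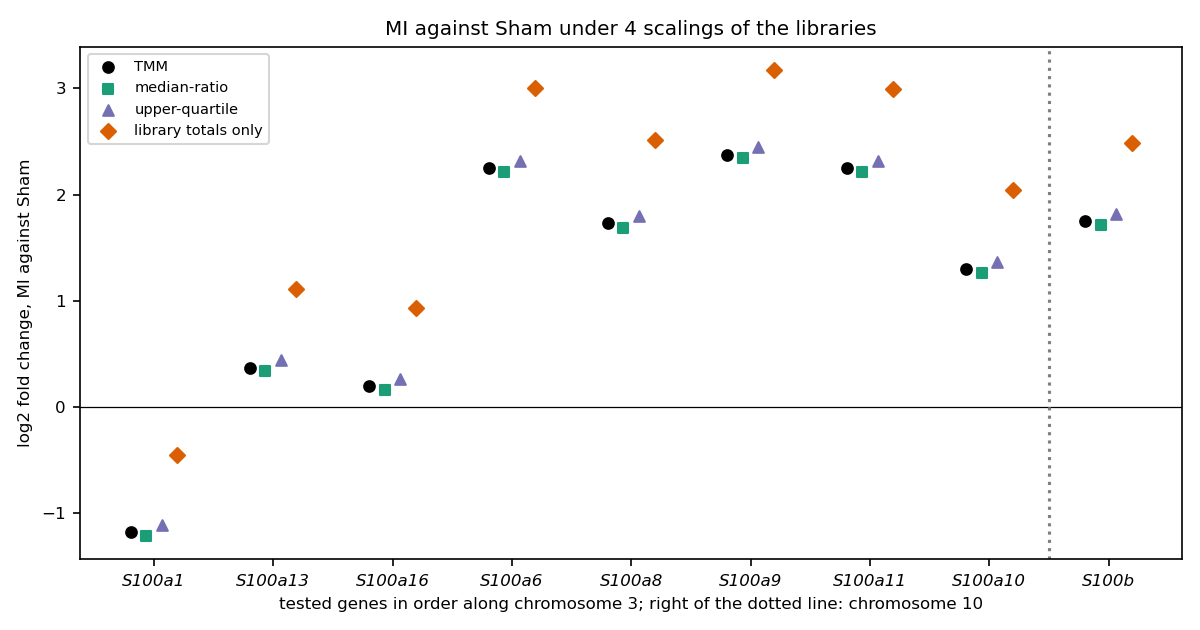
Log2 fold change in MI against Sham (vertical axis) of the 9 tested S100 genes in their order along chromosome 3, with S100b of chromosome 10 at the right, under 4 ways of scaling the libraries (symbols). Library totals as the only scaling give higher values for every gene, from -1.17 to -0.45 for S100a1 and from 0.20 to 0.93 for S100a16, and no gene changes side.

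For each tested member the 2 genes with the most similar course over the 9 libraries were picked from 10504 genes, by the root-mean-square difference of log2 CPM centred on each gene's mean. For S100a1 they were Myo18b, a striated muscle myosin gene, at a difference of 0.056 and Pde4dip, encoding myomegalin, at 0.057, against 0.541 for the spread of S100a1 itself. For S100a11 they were Dsel at 0.077 and Kctd11 at 0.095 (own spread 1.04), and for S100a6 the matrix gene Fbln2 at 0.105 and Dact1 at 0.121 (own spread 1.07). S100a10 was closest to Gas7 at 0.143 and B4galt5 at 0.145 (own spread 0.698), S100a13 to Fbxo42 at 0.040 and Ywhah at 0.048 (0.181), and S100a16 to Rfc2 at 0.052 and Il13ra1 at 0.057 (0.159). The differences were larger for the remaining members. Candidates needed a mean of at least 5 CPM, so genes at a lower level, such as Ngp and Ltf, could not be picked for them. Among the candidates S100b was nearest to Zdhhc2 at 0.299 and B3galt1 at 0.313 (own spread 0.891). S100a9 was nearest to Enpp2 at 0.550 and Pkhd1l1 at 0.567 (1.28), and S100a8 to Dbp at 0.526 and Siglec1 at 0.802 (1.24).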

How the data were processed

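The authors deposited raw read counts per gene symbol for 9 libraries, whole numbers without normalization, and all 9 columns were used. Reads were aligned with STAR, per the submitters' processing notes, which list mm10, GRCm39 and mm39 without saying which was used; the sources used here name no counting program, strand setting or annotation. Of the symbols, 96.3% are names of GENCODE M21. Per the labels' protocols, RNA came from TRIzol extracts and libraries from the VAHTS Universal V6 kit.

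In R 4.3.3, edgeR 4.0.16 scaled the counts by TMM and kept genes that filterByExpr passed (at least 10 counts, at least 15 in total). Group was the only term of the quasi-likelihood model (robust, 9 libraries), which left 6 degrees of freedom. The 15138 tested genes held 99.9% of counts. Intervals are at 95%. The filter keeps a gene that reaches the minimum in 1 group only. Reads had no molecular identifiers, so floors cover counting error only. Alternatives used DESeq2 1.42.0, limma 3.58.1 (voom), other scalings and filters, a replicate block, an adjusted p under 0.01 and each library left out. The procedure was tested on simulated data.

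The genes and lists were chosen with earlier results of these data known. All S100 genes were named, and of each partner list the 4 genes with the smallest adjusted p in MI against Sham; neighbours in course needed a mean of 5 CPM, with a prior count of 2. Ratios within a library, other than the share of S100a1 and the ratio of S100a8 to S100a9, and the sum of these last genes, were added after seeing the data. Values of some marker genes are not reported here.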

Additional observations from a re-analysis of the deposited data

How the results depend on the processing

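The number of S100 genes higher in MI than in Sham was 5 to 7 and the number lower was 1 under every alternative that was run. Leaving out 1 library at a time gave 5 to 6 higher. For MI+BPD against Sham, 6 were higher, or 3 at an adjusted p under 0.01 and 3 to 6 with 1 library left out (3 without MI+BPD replicate 2); 1 was lower, and 0 with library totals only. For MI+BPD against MI, 0 were higher, and 0 to 1 with 1 library left out: without MI replicate 3 S100a1 was called, together with 1126 genes higher and 227 lower over all genes. The mean share of S100a1 was 79.4 to 81.0% in Sham, 35.3 to 44.9% in MI and 45.8 to 48.8% in MI+BPD, and the mean ratio of S100a8 to S100a9 was 0.778 to 0.955, 0.537 to 0.923 and 0.557 to 1.17.

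Some members changed side of 0, none of them with a called value. With 1 library left out at a time, MI+BPD against MI gave -0.22 to 0.07 for S100a6 (0.06, 0.07 and 0.05 without MI replicate 1, MI replicate 2 and MI+BPD replicate 2) and -0.22 to 0.02 for S100a11 (0.00 and 0.02 without MI replicates 1 and 2). S100a8 ranged from -0.23 (without MI replicate 1) to 2.36 in MI against Sham and from -1.52 to 0.93 (without MI replicate 1) in MI+BPD against MI, and was -0.03 in MI+BPD against Sham with voom. S100a9 ranged from -0.21 (without MI replicate 1) to 2.87, from -2.43 to 0.89 (without MI replicate 1) and from -0.06 (without MI+BPD replicate 1) to 1.09 in the same order. S100a16 was -0.08 in MI+BPD against MI with library totals. Among other genes, in MI against Sham, Ngp ranged from -0.83 (without MI replicate 1) to 3.85, and Tie1, an endothelial gene, was 0.17 with library totals. The cause was not tested. Library totals raise the share of called genes that are higher from 53.6 to 85.6% in MI against Sham and from 53.4 to 86.8% in MI+BPD against Sham.

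Same-numbered libraries correlated at -0.055 to 0.003 between Sham and MI, -0.094 to -0.06 between Sham and MI+BPD, and -0.158 to 0.194 between MI and MI+BPD. Differently numbered libraries correlated at -0.03 to 0.069, -0.012 to 0.07 and -0.277 to 0.207 in the same order. With 3 same-numbered pairs in each comparison, these values cannot settle whether replicate numbers mark pairs. With a replicate block 5 members were higher and 1 lower in MI against Sham, 0 changed in MI+BPD against MI, and 5 were higher and 1 lower in MI+BPD against Sham. DESeq2 gave S100a9 and Ngp no adjusted p. Depth limits S100a4, at 0 to 3 counts per library, and S100a8, S100a9 and S100b, at 5 to 579.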
